A study of Mus musculus with 4 samples.

Results

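Trp63 encodes p63, the transcription factor of the basal layer of stratified and glandular epithelia, and the 8 other genes examined here encode parts of the structure that fastens basal cells to the basement membrane. Integrin α6β4 (Itga6, Itgb4) and collagen XVII (Col17a1) span the cell membrane in hemidesmosomes. On the outside they hold laminins, whose chains include those of Lama3, Lamb3 and Lama5, and on the inside the plakins dystonin (Dst) and plectin (Plec) tie them to keratin filaments. p63 is made from alternative starts: the TA form from the first start of the gene, and the ΔN form, the main form of basal cells, from an internal start. Several of the adhesion genes also have internal starts, such as those of the short α3A chain of Lama3 and of the epithelial form of dystonin.

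The genes were listed by name and located in the GRCm38 RefSeq gene table, where all 9 were found among 21440 protein-coding genes with a known strand. Open chromatin had been measured by bulk ATAC-seq, in which the Tn5 transposase cuts accessible DNA, in non-irradiated organoids grown from the submandibular salivary gland of C57BL/6 mice. The labels name 4 samples, 2 of passage 1 and 2 of passage 2, and in each passage 1 mouse was aged 12 weeks and 1 was aged 3 months. All were grown in Matrigel with EGF, FGF2, insulin, dexamethasone, Y27632, R-spondin1 and Wnt3a. The study states that its mice were female and that these organoids came from 4 of them. By its text, ATAC-seq used the younger of its organoid stages in culture, a stage that the labels do not name. The deposited data are 1 list of 32011 distinct regions that names no sample, so that no sample, passage or age has a value of its own, no replicate spread can be given, and no test between groups was possible. Each region carries a fold of signal over the local background at its strongest summit, and an IDR score from 540 to 1000 that is higher where replicate calls rank a region alike. The depth behind the list is unknown, and a region that is missing from it is only not listed.

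At, in or within 50 kb of the 9 genes lay 75 of the 32011 regions. Of these, 3 had their midpoint within 1 kb of the outermost 5′ end of a gene, 37 lay further inside a gene, 19 upstream and 16 downstream. The 3 genes with a region at the outermost 5′ end were Itgb4, Itga6 and Lama5, and for Trp63, Col17a1, Lama3, Lamb3, Dst and Plec none was listed there. The count of 3 of 9 genes stood beside 38.3% of all protein-coding genes. In contrast, 6 of the 9 genes held regions elsewhere in the gene, against 25.6% of protein-coding genes, most of which are shorter. Regions outside the gene but within 50 kb were listed for 8 of the 9, with Lamb3 as the exception, against 71.0% of protein-coding genes.

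**Figure D1:**
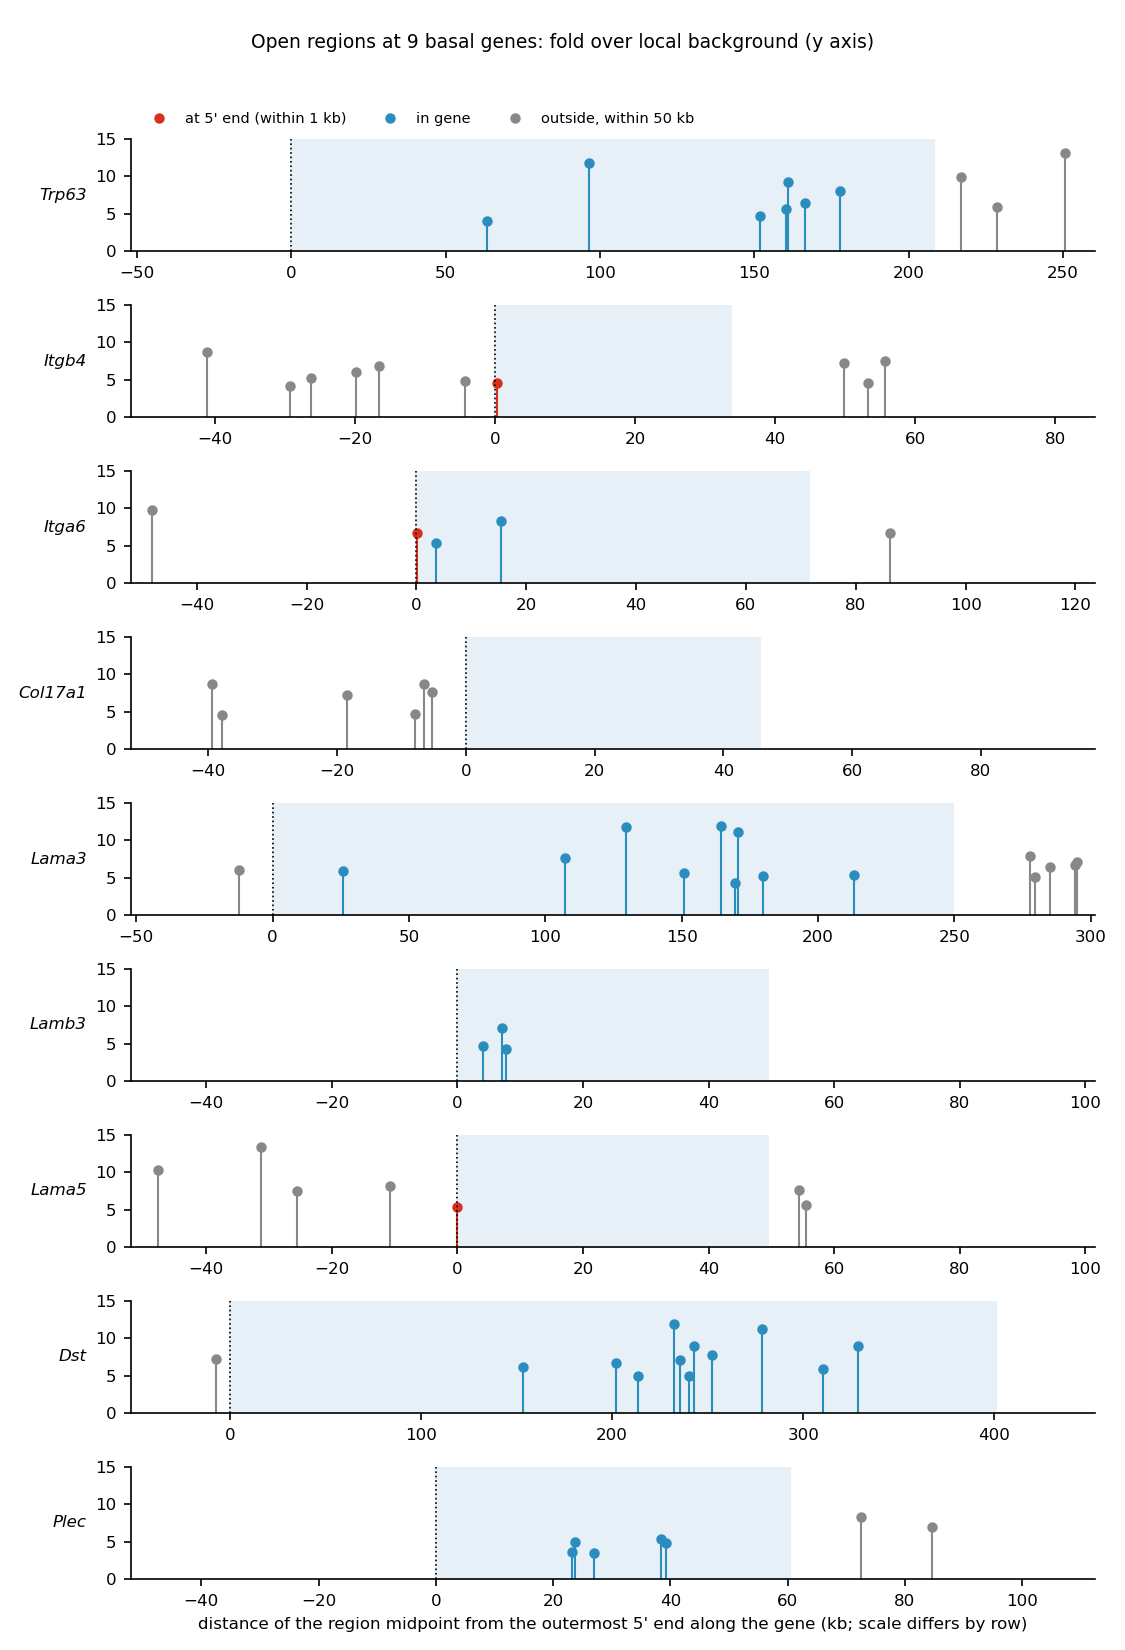
Open regions at the 9 genes. Each row shows 1 gene (shaded) with 50 kb on either side; the x axis is the distance in kb of a region's midpoint from the outermost 5′ end along the gene, and the y axis is the fold over the local background. Red marks the 3 regions at a 5′ end, blue the 37 regions elsewhere in a gene and grey the 35 regions outside.

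Starts other than the outermost were examined where the RefSeq promoter table of GRCm38.p6 lists them, which it did for 4 of the 9 genes, Col17a1, Lamb3, Lama5 and Dst. Of these, 3 had a region midpoint within 1 kb of a listed start, against 42.0% of protein-coding genes in that table. Dst and Lamb3 were added by their internal starts, and Col17a1 had none. The windows below run from 250 bases before a start to 50 after it, 5′ to 3′ on the strand of the gene, and are shown because they place the listed regions on the starts themselves. Capitals mark the bases that lie inside an open region, and lower case those outside.
Dst, start 252.4 kb into the gene, chr1:34160010-34160309, plus strand: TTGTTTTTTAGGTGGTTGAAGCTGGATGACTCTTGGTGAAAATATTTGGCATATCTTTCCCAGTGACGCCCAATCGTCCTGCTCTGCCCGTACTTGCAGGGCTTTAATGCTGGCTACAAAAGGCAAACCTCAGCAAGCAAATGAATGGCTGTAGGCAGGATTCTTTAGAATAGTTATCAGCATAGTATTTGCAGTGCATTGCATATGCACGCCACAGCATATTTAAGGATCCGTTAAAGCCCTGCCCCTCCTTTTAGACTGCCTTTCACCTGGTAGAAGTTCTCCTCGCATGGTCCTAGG
Dst, start 103.7 kb into the gene, chr1:34011345-34011644, plus strand: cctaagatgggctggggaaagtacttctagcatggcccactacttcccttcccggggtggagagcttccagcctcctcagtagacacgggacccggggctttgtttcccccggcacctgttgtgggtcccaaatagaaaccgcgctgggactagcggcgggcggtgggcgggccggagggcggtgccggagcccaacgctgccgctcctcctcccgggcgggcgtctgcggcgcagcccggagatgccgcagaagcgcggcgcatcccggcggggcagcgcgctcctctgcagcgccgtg
Lamb3, start 7.64 kb into the gene, chr1:193301744-193302043, plus strand: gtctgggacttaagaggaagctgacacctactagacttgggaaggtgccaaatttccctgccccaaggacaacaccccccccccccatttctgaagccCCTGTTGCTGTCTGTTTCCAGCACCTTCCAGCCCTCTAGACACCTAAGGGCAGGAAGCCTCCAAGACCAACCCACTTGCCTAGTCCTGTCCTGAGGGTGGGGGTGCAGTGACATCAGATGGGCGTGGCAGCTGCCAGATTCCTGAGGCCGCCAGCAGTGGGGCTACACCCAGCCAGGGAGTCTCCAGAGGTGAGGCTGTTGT
Lama5, start 0.045 kb into the gene, chr2:180225810-180226109, minus strand: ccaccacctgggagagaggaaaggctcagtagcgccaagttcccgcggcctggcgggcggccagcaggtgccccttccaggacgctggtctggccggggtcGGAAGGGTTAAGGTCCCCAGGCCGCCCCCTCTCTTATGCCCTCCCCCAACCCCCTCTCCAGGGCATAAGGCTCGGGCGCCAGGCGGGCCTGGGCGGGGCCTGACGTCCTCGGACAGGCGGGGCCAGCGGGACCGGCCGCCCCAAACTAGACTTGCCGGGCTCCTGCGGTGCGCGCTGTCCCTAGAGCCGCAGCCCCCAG
Col17a1, outermost start, chr19:47691993-47692292, minus strand: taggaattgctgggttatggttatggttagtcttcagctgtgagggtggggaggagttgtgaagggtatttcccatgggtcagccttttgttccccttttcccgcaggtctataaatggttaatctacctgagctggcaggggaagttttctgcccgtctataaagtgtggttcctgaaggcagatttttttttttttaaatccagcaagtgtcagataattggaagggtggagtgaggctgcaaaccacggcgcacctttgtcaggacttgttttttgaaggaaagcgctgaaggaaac

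The windows of Dst differed most. All 300 bases at the start 252.4 kb into the gene lay inside an open region, and 0 of 300 at the start 103.7 kb into it. The open window had a GC content of 46.0% and 6 CpG dinucleotides, and the window that was not listed as open had 70.3% and 31. Lama5, with 199 of 300 bases inside a region, had a GC content of 72.7% and 24 CpG. Lamb3 (202 of 300 bases) had 59.3% and 2 CpG, and Col17a1 (0 of 300 bases) had 46.3% and 5. Among all 32851 windows of the table, the median was 52.7% GC and 7 CpG. Open windows were thus found on either side of the median in both measures. For a second start of Lamb3, 7.89 kb into the gene and not printed, 262 of 300 bases lay inside the same region.

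The windows were searched on both strands for short motifs of factor families that act in such epithelia. The GC box GGGCGG, present in 35.7% of all windows, occurred 4 times in Lama5, of which 3 matches lay inside the open region, and 4 times in the Dst window without a region. CCAAT, the NF-Y motif (37.4% of windows), occurred once each in the open Dst window and in Col17a1. TGTGGT, the RUNX motif (16.8%), occurred in Col17a1 alone among the 6 windows of these genes, and GGAATG, the TEAD motif (14.7%), in the second Lamb3 window alone. TGANTCA (AP-1, 7.81%), GCCNNNGGC (AP-2, 16.6%), AACNNGTT (Grainyhead, 4.20%) and TGTTTAC (FOX, 3.65%) matched none of them. The fixed letters of the paired p53 family motif were matched in all 6 windows, but also in 70.2% of all windows. Matches could overlap one another and are letters only, not bound sites.

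Trp63 had no region at either of its starts. The gene, 208.3 kb long on chromosome 16, held 7 regions, and the nearest midpoint to its first start lay 59.3 kb upstream of it. In the GRCm39 annotation, whose Trp63 is 208.34 kb long, the shorter transcripts start 118.15 kb after the first start, a distance taken within that build alone. With the 3′ ends of the gene in both tables matched instead, the distance is 118.14 kb. The closest regions along the gene had their midpoints at 96.5 and 151.7 kb. These midpoints are 55.3 kb apart, and no other region was listed between them, around the internal start. The distances therefore put no region of the list at the annotated start of the ΔN form, nor at that of the TA form.

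The regions of Trp63 lay mostly past the internal start. In the 118.15 kb before it, there were 2. The first, 63.3 kb into the gene (chr16:25746926-25747122), was weak, with a fold of 4.09. The second, 96.5 kb in (chr16:25779985-25780528), had a fold of 11.8, the highest within the gene, and 89.2% of all regions had a lower fold. In the 90.2 kb after the internal start, there were 5 regions, which together spanned 25.9 kb. They lay at 151.7 kb (chr16:25835402-25835616, fold 4.74), 160.1 kb (chr16:25843689-25844013, 5.62), 160.9 kb (chr16:25844467-25844823, 9.26), 166.2 kb (chr16:25849750-25850276, 6.46) and 177.6 kb (chr16:25861154-25861642, 8.03). Within this run, the regions at 160.9 and 177.6 kb were above the median fold of all regions, 7.11, and had an IDR score of 1000. Each of the other 3 had a score between 675 and 734.

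Past the 3′ end of Trp63, 3 further regions were listed within 50 kb, and none within 50 kb upstream. The farthest, 42.3 kb past the end (chr16:25934147-25934592), had the highest fold around the gene, 13.1, above 93.4% of all regions. The nearest to the gene, 8.65 kb past its end (chr16:25900353-25901115), was the widest, with 763 bp, 3 summits and a fold of 9.98. The third, 20.3 kb past the end, had a fold of 5.89 and an IDR score of 589. All 3 lay between Trp63 and its neighbour P3h2, a prolyl hydroxylase gene, outside any protein-coding gene. They were nearer to the 5′ end of P3h2, from 171 to 205 kb away, than to the outermost 5′ end of Trp63. At 217.0, 228.6 and 250.6 kb from that end, however, all 3 were nearer to the internal start of Trp63, at 118.15 kb, than to P3h2. Which gene they act on was not tested.

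**Figure D2:**
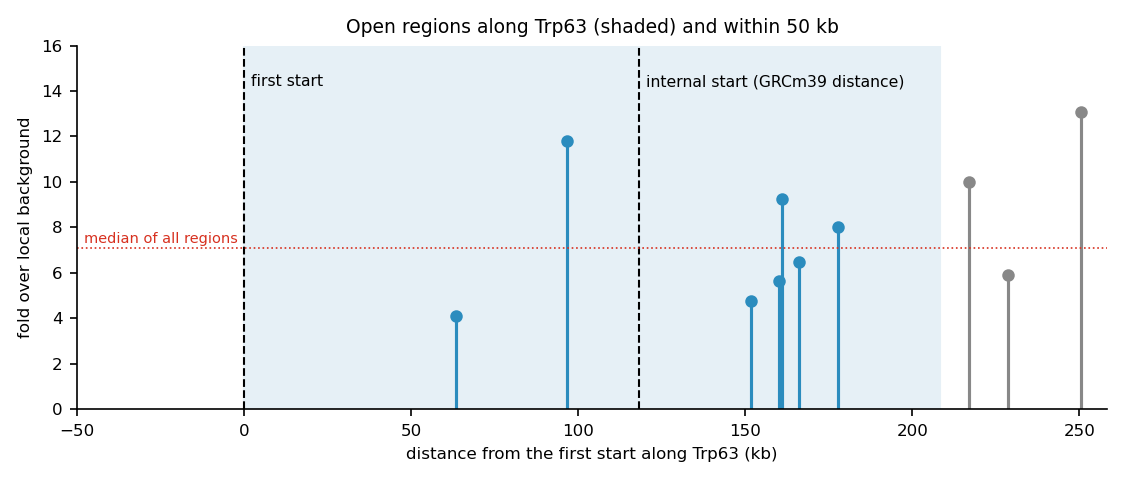
Open regions along Trp63. The x axis is the distance in kb from the first start, the y axis the fold over the local background; blue stems are regions in the gene (shaded), grey stems regions past its end, dashed lines the first start and the internal start as spaced in GRCm39, and the dotted line the median fold of all regions, 7.11. No stem stands at either start, and 5 regions stand between 151.7 and 177.6 kb.

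For its length, Trp63 was rich in regions. Among 1978 protein-coding genes from 0.5 to 2 times as long, the median was 1 region in the gene (quartiles 0 and 4), and 90.3% of these genes held fewer than the 7 of Trp63.

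The integrin genes both had a region at the 5′ end, and differed in the rest of the gene. Itga6, which pairs with β4 in hemidesmosomes and with β1 elsewhere, had a region from 0.206 kb before to 0.337 kb after its 5′ end (chr2:71786680-71787223), with a fold of 6.77, 3 summits and an IDR score of 1000. It held 2 more regions, at 3.51 kb (fold 5.42) and at 15.5 kb (chr2:71802153-71802560, fold 8.37). A further region 48.1 kb upstream had the highest fold at this gene, 9.75. The last, 14.7 kb past the 3′ end, lay at the start of Pdk1.

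Itgb4, whose β4 chain carries the long inner tail that binds plectin, had a weaker region at its 5′ end. It began 0.081 kb inside the gene (chr11:115974806-115975122) and had a fold of 4.61, a single summit and an IDR score of 749, and 6.70% of all regions had a lower fold. No other region lay inside this gene of 33.7 kb, and of 7263 genes of similar length 67.9% likewise held none. Upstream lay 6 regions, of which the nearest, at 4.33 kb, had a fold of 4.91. The regions at 16.5 and 19.9 kb upstream had folds of 6.80 and 6.05 and IDR scores of 1000, and lay inside the neighbouring gene Sap30bp but nearer to the 5′ end of Itgb4. The strongest, at 41.1 kb with a fold of 8.77, was at the start of Sap30bp itself.

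Col17a1, like Itgb4, held no region further inside the gene, and unlike it had none at its start. Col17a1 encodes the hemidesmosomal collagen once named BP180, after the blistering disease in which it is an autoantigen. Its 6 regions all lay upstream, and 4 of them were nearer to its 5′ end than to any other. A group of 3 stood 5.23 kb (chr19:47697113-47697431, fold 7.62), 6.43 kb (chr19:47698291-47698656, fold 8.71) and 7.90 kb (fold 4.72) before the start. The fourth, at 18.5 kb, had a fold of 7.28. The region 39.5 kb upstream was at the start of Sfr1. Of 6474 genes of similar length, 61.9% held no region in the gene.

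Among the laminin genes, Lama3 and Lamb3 code for chains of laminin-332, the ligand of α6β4 in the basement membrane, and Lama5 for a chain of laminins that line most epithelia. In Lama3, 249.6 kb long on chromosome 18, 9 regions were listed inside the gene and none at the outermost 5′ end. The nearest to that end lay 12.3 kb upstream, with a fold of 6.05. The 3 highest folds were 11.9 at 164.5 kb (chr18:12497732-12498151), 11.8 at 129.7 kb (chr18:12462861-12463405) and 11.1 at 170.6 kb (chr18:12503836-12504298) along the gene. Each exceeded the fold of at least 85.9% of all regions. The other 6 ranged from 4.31 to 7.68.

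An internal start of Lama3 lay close to the last of these strong regions. In the GRCm39 annotation the short transcript starts 170.38 kb after the first start, and the region spanned 170.42 to 170.88 kb along the GRCm38 gene. The annotated gene is 1.275 kb longer in GRCm39 than in the GRCm38 table, and with the 3′ ends matched the start would lie at 169.11 kb, where the nearest region, at 169.7 kb, had a fold of 4.31. The position of the region on this start is thus uncertain by that length. Of 1602 genes of similar length, 93.9% held fewer regions than Lama3, and their median was 2. Past the 3′ end, 5 regions with folds from 5.15 to 7.91 lay inside the neighbour Ttc39c and nearer to its 5′ end.

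Lamb3 had the fewest regions, 3, and all of them lay in the first 8 kb of the gene as the table defines it. Both starts of the promoter table lay inside chr1:193301842-193302254, which had a fold of 4.25 and an IDR score of 703. The neighbouring chr1:193301285-193301741, just before it, had a fold of 7.04 and a score of 1000. The third, 4.03 kb into the gene, had a fold of 4.65. No region was listed within 50 kb outside Lamb3. The GRCm39 annotation begins Lamb3 farther out, so the outermost 5′ end of this gene differs between annotations. With the 3′ ends matched, its first start lies 88.1 kb upstream of the 5′ end used here. Its other starts lie from 1.70 kb before to 6.37 kb after that end. This match puts the last starts at 6.12 and 6.37 kb, whereas the promoter table has starts of nearly the same spacing at 7.64 and 7.89 kb. The matched distances of Lamb3 are therefore uncertain. In the span of the GRCm38 table, of 6179 genes of similar length, 92.8% held fewer regions in the gene.

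Lama5, 49.5 kb long, had a region centred on its 5′ end (chr2:180225791-180226008), with a fold of 5.31 and an IDR score of 838, and none further inside. Of its 6 regions outside, the strongest had a fold of 13.3 (chr2:180257014-180257496) and stood 31.4 kb upstream at the start of Rps21, a ribosomal protein gene. Regions at the starts of Cables2 and Adrm1 had folds of 10.3 and 7.60. The region 10.8 kb upstream, with a fold of 8.22, was the only 1 of the 6 nearest to Lama5. The high folds around Lama5 were therefore mostly those of neighbouring promoters.

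The plakin genes Dst and Plec were marked by regions inside the gene. Dst, 400.8 kb long on chromosome 1, has forms for nerve, muscle and epithelium, and held 11 regions, the most of the 9 genes. None lay in the first 153 kb. A run of 5 stood between 232.4 and 252.3 kb, and ended on the start whose window was open throughout. It began with the strongest region of the gene (chr1:34140129-34140464, fold 11.9), followed at 235.4 kb by the widest (749 bp, fold 7.10), at 240.3 kb by a weak region (fold 4.96) and at 243.0 kb by a region with a fold of 9.01. The region on the start (chr1:34159921-34160380) had a fold of 7.69, 3 summits and an IDR score of 1000. After it, the region at 278.3 kb had a fold of 11.2.

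The distances in the GRCm39 annotation put starts of Dst at 0, 0.388, 98.0 to 104.0 and 252.5 kb. Regions were listed at the last alone. In front of the gene, 1 region with a fold of 7.19 lay 7.56 kb upstream of the outermost 5′ end. Of 888 genes of similar length, 92.3% held fewer regions than Dst, with a median of 2.

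Plec, 60.4 kb long on chromosome 15, has many alternative first exons, each giving plectin a different head. The RefSeq gene and the GRCm39 transcripts span the same length, 60.405 kb. No region lay in the first 23 kb. A first group of 3 stood at 23.2 kb (chr15:76208102-76208341, fold 3.61), 23.7 kb (chr15:76207431-76207860, fold 4.89) and 27.1 kb (fold 3.50), among annotated starts at 22.2, 22.7, 23.1 and 25.1 kb. The start at 23.1 kb fell inside the first of them. A second pair, at 38.4 kb (fold 5.39) and 39.3 kb (fold 4.80), lay past the last annotated start, at 35.7 kb. All 5 had folds below the lower quartile of all regions, 5.70, and the lowest exceeded 0.815% of all regions. Those at 23.7 and 38.4 kb nevertheless had an IDR score of 1000. Of 5529 genes of similar length, 97.5% held fewer regions than Plec. Its count of 5 became 1 among the 16006 regions of lowest q-value and 2 at an IDR score of 1000.

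**Figure D3:**
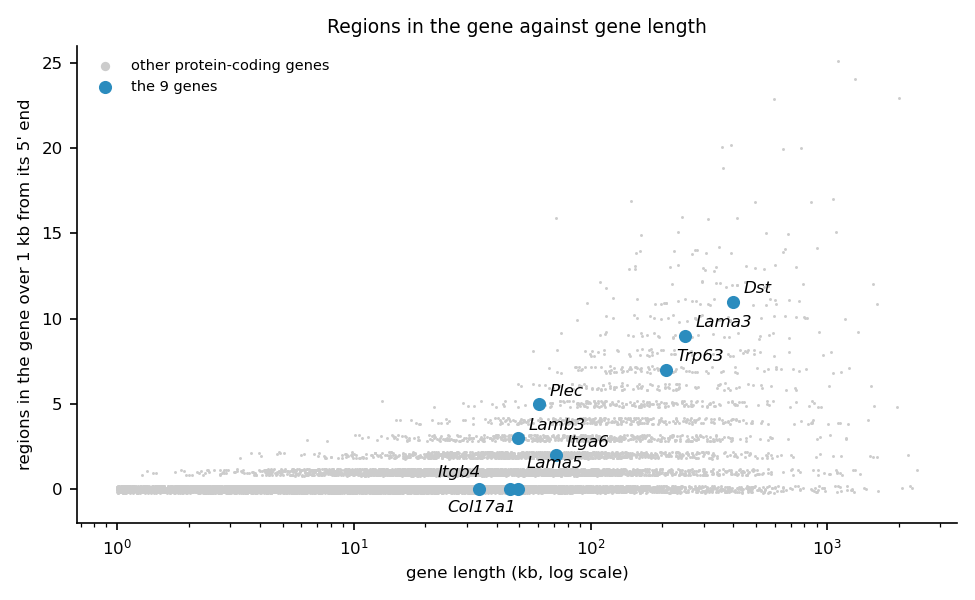
Regions in the gene, over 1 kb from its 5′ end, against gene length on a log scale. Each small grey point is a protein-coding gene of at least 1 kb, moved slightly up or down at random for display, and blue points are the 9 genes. Dst, Lama3 and Trp63 held 11, 9 and 7 regions, and Itgb4, Col17a1 and Lama5 held 0.

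Over all 9 genes, the regions had a median fold a little below that of the whole list, and the 3 at outermost 5′ ends had lower folds than most regions at such ends. The 75 regions had a median fold of 6.75 (quartiles 5.24 and 8.23), against 7.11 (quartiles 5.70 and 9.32) for all regions. The 3 at outermost 5′ ends had folds of 4.61, 5.31 and 6.77, below the median of 8.18 for the 7324 regions at protein-coding 5′ ends, and 2 of the 3 were below its lower quartile of 6.28. The 37 regions inside genes had a median of 5.89, and the 35 outside 7.19. An IDR score of 1000 was given to 35 of the 75 regions (46.7%), against 45.1% of all regions. The highest fold of a gene ranged from 7.04 for Lamb3 to 13.3 for Lama5, and the median from 4.65 for Lamb3 and 4.89 for Plec to 7.60 for Lama5. The list gives 1 fold per region and none by sample, so these differences have no replicate check.

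**Figure D4:**
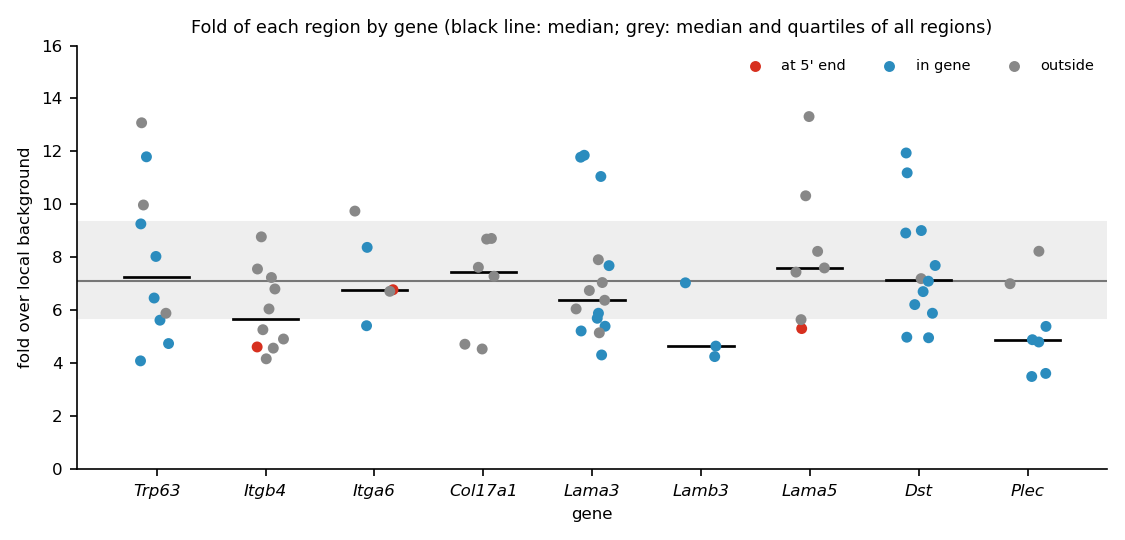
Fold of each of the 75 regions over the local background, by gene. Points are regions, coloured by position and spread sideways at random for display, black lines are the medians of a gene, and the grey line and band are the median, 7.11, and quartiles, 5.70 and 9.32, of all regions. All 8 points of Plec and Lamb3 inside the gene lie below the grey line.

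Some of the 35 regions outside belong by position to neighbours. By outermost 5′ ends, 11 of them lay nearest to the gene in question and 24 nearest to another protein-coding gene, and 7 were within 1 kb of such another end. The 3 regions past Trp63 are among the 24, although they lay nearer to its internal start. For the 37 regions inside the genes, that number was 0. No share over all protein-coding genes is given beside these counts, so they cannot be read as particular to these genes. The nearest 5′ end need not be the target of a region.

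Other genes of the same structures were examined as lists. Of 24 further genes of the basement membrane zone, 6 had a region at the outermost 5′ end (25.0%, against 38.3% of protein-coding genes), and 15 held a region elsewhere in the gene, against 25.6% of protein-coding genes. All of the 24 but Cd151, Bcam and Lamb2 were longer than the median protein-coding gene, 17.5 kb. The 6 with a region at the outermost 5′ end included the integrin gene Itgb1, where that region had a fold of 10.7, and Fermt1, a kindlin of focal contacts (7.49). Among them were also Dag1, which encodes the laminin receptor dystroglycan (6.92), Agrn (5.44) and Lamc1 (5.15). The 18 without a region there included Cd151, Itga3, Itga2, Col7a1, Col4a1 and Col4a2. The laminin chains Lama1, Lama2, Lama4, Lamb1, Lamb2 and Lamc3 had none at that end.

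Of 5 further plakins, Eppk1 (fold 8.43), Evpl (5.65) and Dsp (5.55) had a region at the 5′ end, and Ppl and Macf1 had none. This is a share of 60.0%, against 38.3% of protein-coding genes. The midpoint of the Eppk1 region lay 0.9185 kb inside the gene, close to the limit of 1 kb. Of 12 genes commonly given as p63 targets, 6 had a region at the 5′ end (50.0%, against the same 38.3%). They included Perp, a desmosome gene, with a fold of 7.90, Bmp7 (6.29), the basal keratin gene Krt14 (5.43), Sfn (5.28) and the other basal keratin gene Krt5 (2.95). Fras1, Jag2, Fgfr2, Cdkn1a, Satb1 and Zfp750 had none within 1 kb. These counts are descriptions and were not tested. Krt5, Krt14, Itgb1 and Trp63 also stand among the cell type markers below.

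The labelled cell type was set against marker genes, beside the 38.3% of all protein-coding genes with a region within 1 kb of the outermost 5′ end. The lists are short, and the counts were not tested. Both basal duct markers, Krt14 and Krt5, had a region at the 5′ end, that of Krt5 with a fold of only 2.95. So did both epithelial markers, Epcam and Cdh1, and all 3 stem/progenitor I markers, Cd164, Sox9 and Cd24a. Of the stem/progenitor II markers Itgb1, Cd44 and Trp63, 2 of 3 had one, with Trp63 as the exception. Luminal duct markers had one in 2 of 5 cases (Krt8 and Cldn4), close to the share of all protein-coding genes. Myoepithelial markers had one in 1 of 5 (Oxtr) and acinar markers in 0 of 3. For other cell types, 1 of 6 immune markers (Cd68), 0 of 5 endothelial and 0 of 6 fibroblast markers had a region there. In bulk organoids, a region open in few cells and one weakly open in many cannot be told apart.

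**Figure D5:**
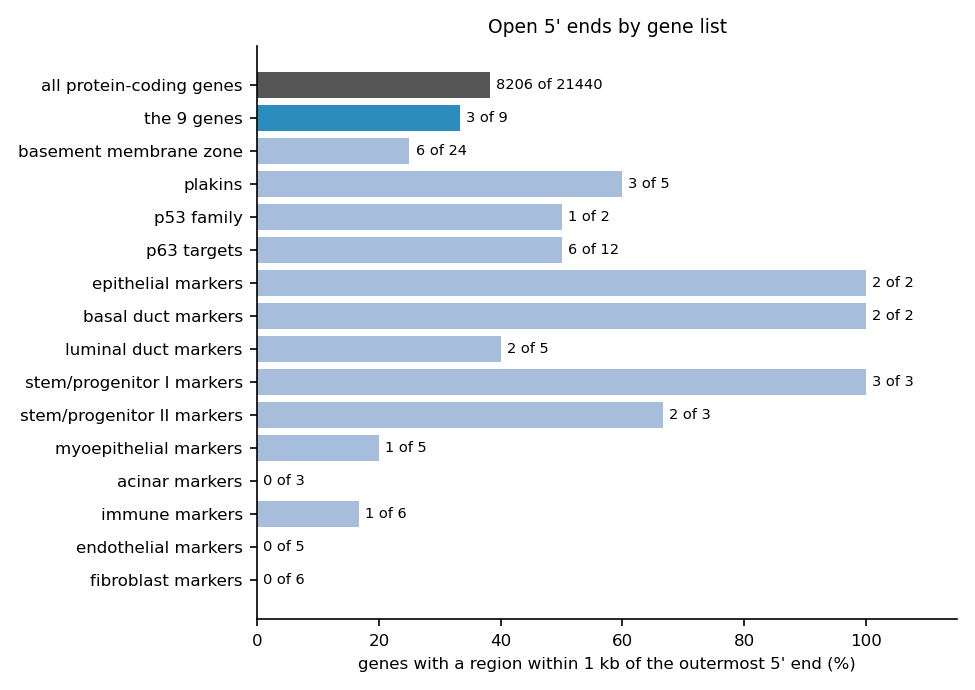
Share of genes with a region midpoint within 1 kb of the outermost 5′ end, by list, in percent; numbers beside the bars are genes with such a region of genes matched. The dark bar is all protein-coding genes (38.3%), and the 9 genes stand at 3 of 9; lists of few genes, such as the 2 basal duct markers, move by large steps.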

How the data were processed

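The submitters prepared Nextera ATAC-seq libraries and sequenced 75 bp paired-end reads. By the methods, alignment and calling used the ATAC-seq pipeline of ENCODE (version not given in the sources used here), and a consensus was made from all organoid samples; whether it is the deposited list is not stated, and the size given for it is not that of the 32011 regions below, so which samples entered the list is uncertain. Each summit of the deposited list has an IDR score, the ratio (fold) of its signal to local background, and its q-value as −log10, all from the authors' peak caller; the p-value column was not used. Pipeline filters decide which regions are listed, and the depth of each sample is unknown, so the precision of a fold cannot be stated.

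The 69545 lines were joined into 32011 regions by position, each with its summit of highest fold. The processing notes name GRCm39 and HOMER. However, a region midpoint lay within 1 kb of 38.3% of 21440 protein-coding 5′ ends in the RefSeq table of GRCm38.p6, 3.77% after a shift of 50 kb, and 5.20% of 5′ ends in GRCm39, so coordinates were read as GRCm38. Strand came from the RefSeq promoter table of GRCm38.p6 for 17492 genes and by name from GENCODE (GRCm39) for 3948, including Trp63, Itgb4, Itga6, Lama3 and Plec. For 22110 genes of any type with both, 21985 had the same strand. No GRCm38 genome was used, so sequence outside the promoter table was not analysed here. Distances of starts in GRCm39 were measured within that build. Genes of similar length were from 0.5 to 2 times as long.

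The genes and lists were chosen with earlier results of these data known, and no test was run. Named regions are those at the 5′ end and the strongest of each gene, with all of Trp63, and from each list at most 6 genes with the highest fold at the 5′ end and 6 without, apart from some genes that are not reported here; the other laminin chains, neighbouring genes and further regions were named after their values were seen. Positions were counted with pandas 2.3.3 and numpy 2.4.6 under Python 3.11.15, figures were drawn with matplotlib 3.10.9, and the functions were tested on simulated regions. Alternatives covered distances, overlap, score and q-value thresholds, counting of lines, and the build.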

Additional observations from a re-analysis of the deposited data

How the results depend on the processing

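The count of 3 genes with a region at the outermost 5′ end stayed at 3 within 500 bp, within 2 kb and with any part of a region counted. It was 1 (Itga6) among the 16006 regions of lowest q-value and 1 among regions with an IDR score of 1000. With a distance of 10 kb, chosen after the data were examined, it was 6, with Col17a1, Lamb3 and Dst added. With coordinates read as GRCm39, also chosen after, it was 0. The share of all protein-coding genes, 38.3%, was computed for 1 kb alone and cannot be set beside the count at 10 kb. The 37 regions in genes became 69 when every line was counted, 15 in the set of lowest q-values and 17 at an IDR score of 1000. For Trp63, 7 regions in the gene became 3 under both of these thresholds. The 35 regions outside became 17 within 20 kb, 63 within 100 kb and 21 in the set of lowest q-values. Among 43 listed genes, 16 were marked at the 5′ end, 14 within 500 bp, 18 within 2 kb and 10 in the set of lowest q-values; of 40 markers, 13 became 15 within 2 kb. By construction, stricter sets and shorter distances can only lower or keep a count, and lines and longer distances can only raise or keep it. Of 49 alternatives in all, 19 gave a value within 1.5 times the reported one. Among them were 9 counts of 0 in single genes that stayed 0. Stricter sets could not lower these, and counting every line could not raise them, since lines have the positions of the regions. Samples could not be left out in turn. No paired analysis was possible because the deposited list names none of them. Depth is unknown, so a region that is not listed may still be open.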

Other observations

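The relatives of p63 and a further plakin differed in where their regions lay. Trp73, which encodes p73, held 6 regions inside the gene and none at the 5′ end, and the nearest region midpoint lay 2.56 kb upstream. Trp53 had a region 0.9755 kb upstream of its 5′ end, close to the limit of 1 kb used here, with a fold of 9.92, and none inside the gene. Macf1, a plakin of similar length to Dst (338.2 kb), held 12 regions inside the gene and none at the 5′ end. Lama2, 635.9 kb long, held 7 inside the gene, and the region nearest to its 5′ end lay 247 kb upstream.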
